A study of Mus musculus with 4 samples.

Results

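Immediate early genes are switched on within minutes of a stimulus, without new protein synthesis, and encode mostly short-lived transcription factors such as the FOS, JUN and EGR families. A second layer of induced genes limits the response, among them phosphatases, RNA decay factors and cytokine feedback inhibitors, while heat shock proteins are induced by protein damage. Enzymatic release of cells from tissue can itself induce many of these genes, so their levels in dissociated intestinal stromal cells (IntSCs) are of interest for both biology and handling.

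A fixed list of 41 immediate early, stress and dissociation response genes was followed here. All 41 were among the 18619 genes of the table, and together they took 1.26% of its UMIs. They form a list of gene names drawn up with earlier results of these data known, and no threshold on a measured value set the list. The table held 1 single-cell library of 4108 cells from LATS1/2 KO 1w, that is from adult mice of the C57BL/6 background carrying Pdgfrb-Cre-ERT2, a Rosa26-tdTomato reporter and floxed Lats1 and Lats2, taken 1 week after tamoxifen. PDGFRβ drives the Cre in fibroblasts, smooth muscle cells and mural cells alike, and the reporter marks cells that recombined. The small intestine was digested with collagenase and dispase, and tdTomato+ cells were sorted after depletion of immune, epithelial and endothelial cells. The WT libraries, which carried the reporter without the floxed alleles, and the 2w library were not analysed here, so no level below is a difference between genotypes.

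With 1 library there is no replicate, and cells of 1 library do not replace replicates. Every interval given is therefore a 95% interval for counting error only, and no p-value is given. Levels are UMIs per 1000000 UMIs of the cells named (CPM), and since the kit reads the 3′ end, levels of different genes are not compared. Cells held a median of 10726 UMIs. Lats1 was at 14.2 and Lats2 at 53.5 CPM, but 3′ reads may lie outside the deleted exons and check nothing about the deletion. A bound on free RNA was taken as 4.84% of a gene's mean level, from Y-linked transcripts in 2004 Xist-rich cells (5 Xist UMIs or more). Their upper limit of 7.70 CPM was divided by the 159 CPM of the 1983 cells without Xist. The mean Y-linked level over all cells is under 159 CPM, because Xist-rich cells held so little. As a share of a gene's mean over all cells, 4.84% is thus too low, and so is every bound given below. For 40 of the 41 members with at least 100 UMIs, 0 had a lowest level across cell types at or under that bound. Nearest to it were the vFB3-like lows of Atf3 (3.44 CPM against 3.33), Hspa1a (15.5 against 9.15), Nr4a1 (8.60 against 4.86) and Bcl6 (1.72 against 0.888). A higher bound may cover them. Fosl1, a FOS family member, had 15 UMIs and is left out of the comparisons.

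The upstream sequences of members that moved together inside villus fibroblasts are shown first. RefSeq promoter windows matched 35 members by symbol, and the 250 bases before the start were searched on both strands (build GRCm38.p6, the same build as the mm10 coordinates of the files). The CArG box, bound by serum response factor, was present in any window of 2 members and of 1.62% of 27025 genes. The cAMP response element, TGACGTCA, was present in 4 members, namely Btg2, Dusp1, Maff and Ppp1r15a, and in 1.77% of all genes. The AP-1 letters TGANTCA were in 2 members and 7.82% of all genes, and the TATA letters TATAAA, which can lie inside a CArG box, were in 6 members and 14.3% of all genes. The windows of 4 members with no annotated exon inside them are printed because their genes carry the results below. Capitals mark a CArG box, a cAMP response element or TATAAA. Fos lies at chr12:85473640-85473889 on the plus strand, Btg2 at chr1:134079156-134079405 on the minus strand, Egr2 at chr10:67537619-67537868 on the plus strand (1 of its 5 windows) and Gadd45g at chr13:51846425-51846674 on the plus strand.
Fos: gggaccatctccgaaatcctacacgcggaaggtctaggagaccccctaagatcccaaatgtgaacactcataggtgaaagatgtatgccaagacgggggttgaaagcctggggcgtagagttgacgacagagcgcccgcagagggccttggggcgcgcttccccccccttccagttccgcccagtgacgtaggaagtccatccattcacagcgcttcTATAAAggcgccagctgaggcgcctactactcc
Btg2: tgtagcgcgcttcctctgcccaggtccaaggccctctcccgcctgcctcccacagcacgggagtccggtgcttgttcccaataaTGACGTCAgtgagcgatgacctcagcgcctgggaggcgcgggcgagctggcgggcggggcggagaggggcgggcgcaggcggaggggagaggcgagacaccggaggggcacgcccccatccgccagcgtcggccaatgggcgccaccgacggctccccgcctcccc
Egr2: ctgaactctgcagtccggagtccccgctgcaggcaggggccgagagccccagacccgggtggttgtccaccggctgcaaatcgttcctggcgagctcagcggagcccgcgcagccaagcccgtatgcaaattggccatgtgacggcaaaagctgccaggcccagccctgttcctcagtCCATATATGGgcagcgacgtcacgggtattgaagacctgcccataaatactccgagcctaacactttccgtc
Gadd45g: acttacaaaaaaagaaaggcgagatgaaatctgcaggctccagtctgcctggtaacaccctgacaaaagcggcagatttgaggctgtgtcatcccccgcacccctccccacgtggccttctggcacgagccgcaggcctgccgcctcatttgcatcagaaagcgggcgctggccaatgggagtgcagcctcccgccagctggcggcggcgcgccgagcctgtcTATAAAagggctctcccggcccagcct
These letters were matches in a short window, and no match says only that the letters are not in it.

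Stromal cell types were set by marker genes after clustering with the members kept out of the clustering genes. Of 10 clusters, 5 were pooled as villus fibroblasts (3025 cells), and the others were named vFB3-like (45 cells), FB4-like (687), FB5-like (205), SMC-like (76, smooth muscle) and MC-like (70, mural cells). Villus clusters counted 3 to 6 of 6 vFB1 and vFB2 markers, and clusters 5 and 6 also counted 3 of 5 vFB3 markers. The name of the pool rests least firmly on cluster 5, which counted 3 markers of either list, and whose 10 leading genes held the vFB3 marker Fhl2 and none of the vFB1 and vFB2 list. Counts were therefore also made with the 2653 villus cells outside cluster 5, a choice made after seeing the data. Each other type counted its whole list, and MC-like cells counted all 6 SMC and all 4 FB4 markers as well. FB4-like cells also counted 3 of 6 vFB1 and vFB2 markers, as many as cluster 5. SMC-like and MC-like cells each counted 3 of 5 vFB3 markers. Median UMIs per cell ran from 6853 in MC-like to 12888 in vFB3-like cells. Among villus clusters, cluster 4 had 3 members (Fosb, Bcl6 and Btg2) among its 10 leading genes, beside Adamts4 and Cxcl10, although members had no part in the clustering.

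The members differed widely between types. Of 40 members, 38 had a highest type at least 2-fold above the lowest, against 63.4% of all genes, and the median ratio was 9.49 against 2.41 for all genes. MC-like cells were the highest type for 32 members and vFB3-like cells the lowest for 27. This order rests on pooling the villus clusters, which differed among themselves. Fos was at 1176, 597, 2814, 212 and 396 CPM in clusters 1, 2, 4, 5 and 6. Cluster 4 lay above MC-like cells for Fos, Fosb (677 against 527), Egr1 (2212 against 1400) and Btg2 (1365 against 1028). For Jun, cluster 4 was at 1208 and MC-like cells at 1190, with an MC-like interval of 1103 to 1283. Against villus fibroblasts, 26 members were at least 2-fold higher in MC-like cells with an interval above 1, where 7.64% of all genes were, and 0 were lower, where 7.01% of all genes were. In vFB3-like cells 25 members were at least 2-fold lower (7.36% of all genes) and 0 higher (6.18%). Villus cluster 5, which shares vFB3 markers, was as low for several of them, with Fos at 212 CPM against 191 and Junb at 192 against 258. FB5-like cells, which had the highest levels of Sox6, Bmp7 and Pdgfra but not of their listed marker Foxl1 (12.4 CPM, against 25.2 in SMC-like cells, 21.0 in villus cluster 5 and 17.2 in vFB3-like cells), had 22 members lower (9.66%) and 2 higher (5.11%). FB4-like cells had 6 higher (3.26%) and 0 lower (5.61%), and SMC-like cells had 0 higher (5.22%) and 3 lower (6.77%). The FB4-like genes past 2-fold were Myc, Atf3, Klf4, Hspa1b, Maff and Dusp1, those higher in FB5-like cells were Gadd45a and Cebpb, and those lower in SMC-like cells were Klf2, Klf4 and Bcl6. Against the villus cells outside cluster 5, the 6 FB4-like genes became 2 (Myc and Atf3), where 2.90% of all genes were higher. The 26 higher in MC-like cells became 21 (7.53%), and the 25 lower in vFB3-like cells became 26 (8.10%). MC-like cells had the lowest median depth and a median mitochondrial share of 5.65%, against 4.90% in villus fibroblasts. They also carried SMC markers, at a summed 12323 CPM against 609. The 4 glial markers summed to 60.5 CPM against 2.30, and the 5 endothelial markers, 1 of them at 0, to 17.3 against 1.33. The 3 markers of interstitial cells of Cajal summed to 93.3 against 26.4, with Ano1 at 67.4 in MC-like cells. The 4 immune markers were lower, at 15.6 against 22.1. SMC-like cells carried vFB1 and vFB2 markers at a summed 8242 CPM, close to 8334 in villus fibroblasts. The count of 38 was 1 when only cells of at most 5% mitochondrial UMIs were used, since only 2 types then kept 40 cells. The part of these markers, of depth and of mitochondrial share in the member levels was not tested.

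**Figure D1:**
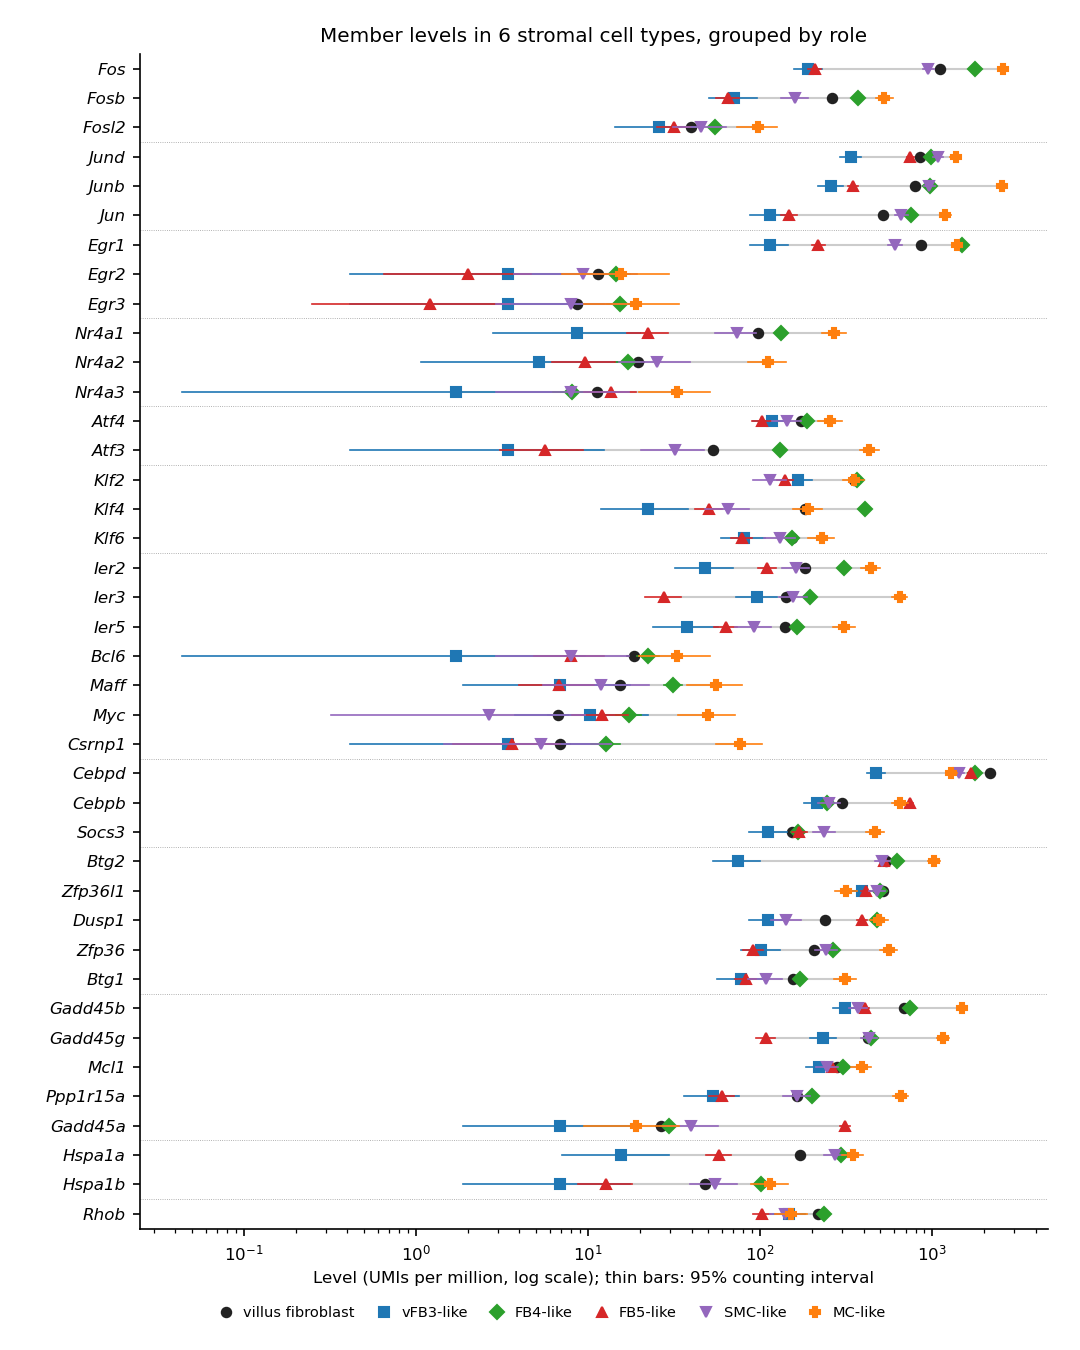
Levels of 40 members in 6 stromal cell types. Each row is a gene, grouped by role between dotted lines, the x axis is the level in CPM on a log scale, symbols are types and thin bars are 95% counting intervals. MC-like cells lie at the right in 32 rows and vFB3-like cells at the left in 27. Gadd45a is the row in which FB5-like cells stand apart, at 313 CPM.

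FOS and JUN proteins pair to form AP-1. Fos was at 2564 CPM in MC-like cells, 1764 in FB4-like cells, 1116 in villus fibroblasts, 951 in SMC-like cells, 208 in FB5-like cells and 191 in vFB3-like cells. FB5-like and vFB3-like cells had overlapping intervals, of 190 to 226 and 157 to 230, and each of the other steps exceeded counting error. After thinning to 5000 UMIs, the share of cells with a Fos UMI stood in the same order. It was 91.8% of 49 MC-like cells, 79.6% of FB4-like, 58.4% of villus fibroblasts, 56.0% of SMC-like, 29.5% of FB5-like and 25.0% of vFB3-like cells, with 95.7%, 86.2%, 66.1%, 60.5%, 39.5% and 51.1% before thinning, where depth differs between types. The thinned share of MC-like cells lay 12.3 points above that of FB4-like cells, with a 95% Newcombe interval of 0.858 to 18.1 that covers counting error only. Between villus fibroblasts and SMC-like cells the difference was 2.35 points (-8.47 to 13.7), and between FB5-like and vFB3-like cells it was 4.5 points (-11.1 to 16.9), so counting error did not settle the order of either pair.

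Atf3, a stress-induced transcription factor, had the widest range of the members. Its level was 432 in MC-like, 130 in FB4-like, 53.5 in villus fibroblasts, 31.9 in SMC-like, 5.60 in FB5-like and 3.44 in vFB3-like cells. MC-like cells stood alone at the top, and the lowest value rested on 2 UMIs, so the ratio of 126 had an interval of 34.4 to 1043. Ier3, a survival-linked early gene, was at 648 in MC-like cells and 27.6 in FB5-like cells, a ratio of 23.5 (18.1 to 30.8). Csrnp1, a nuclear factor of the early response, was at 76.0 in MC-like cells, 12.8 in FB4-like cells and at most 6.86 in the others. The orphan nuclear receptors Nr4a1, Nr4a2 and Nr4a3 were also highest in MC-like cells, at 270, 111 and 32.8. Nr4a1 had a ratio to vFB3-like cells of 31.3 (13.1 to 97.9). The vFB3-like lows of Atf3 and Nr4a1 lay near the bound on free RNA, which is too low. Myc, at 50.1 in MC-like cells, was 7.50 times its level in villus fibroblasts.

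Some members did not follow this order. Gadd45a, a growth arrest and DNA damage gene, was at 313 (291 to 335) in FB5-like cells, where Fos was among the lowest, and at 6.88 to 39.9 in the other types. It was 11.7-fold higher in FB5-like cells than in villus fibroblasts, while its family members Gadd45b and Gadd45g were highest in MC-like cells, at 1496 and 1156. Cebpb, a C/EBP transcription factor of the acute phase response, was highest in FB5-like cells too, at 743, next to 651 in MC-like and 297 in villus fibroblasts. Btg2, an antiproliferative gene, was at 523 in FB5-like cells, close to 543 in villus fibroblasts, and at 74.0 in vFB3-like cells. Klf4 was highest in FB4-like cells, at 405, with 190 in MC-like and 183 in villus fibroblasts. Egr1 was at 1484 in FB4-like and 1400 in MC-like cells, a ratio of 1.06 whose interval reached under 1. Cebpd was highest in villus fibroblasts, at 2167, and was 4.62-fold lower in vFB3-like cells, at 470. Members with the flattest profile were Zfp36l1, an RNA decay factor, with a ratio of 1.65 (1.42 to 1.92), Mcl1, an anti-apoptotic BCL2 family gene, at 1.77 (1.42 to 2.21), Rhob, a GTPase, at 2.30 (2.02 to 2.63) and Atf4, the integrated stress response factor, at 2.5 (2.02 to 3.07). Hspa1a, an inducible HSP70, had a ratio of 22.4 (11.6 to 49.8) between MC-like and vFB3-like cells, with a low near the bound on free RNA. Hspa1a and Hspa1b are near-identical neighbours, and reads may be divided between them uncertainly.

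To ask which members moved together inside villus fibroblasts, the UMIs of each cell were split at random in 2 parts. The first part ranked cells by the summed share of 6 index genes (Fos, Fosb, Junb, Egr1, Ier2 and Atf3), a measured index gene being left out of its own ranking. The second part gave levels in 5 equal groups of 605 cells, called index groups, from bottom to top. An index share of 0 in the first part was held by 554 cells, and the 605 cells of the top index group had shares from 0.649% to 2.64% of UMIs. Of 36 members with at least 100 UMIs over the top and bottom index groups, 30 were at least 2-fold higher in the top index group, where 4.31% of 7014 genes were, and 0 were at least 2-fold lower, where 1.17% were. Without the index genes it was 24 of 30 members, with a median ratio of 7.39 against 1.01 for all genes, and over the 36 the median was 12.3.

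The largest ratios were those of Fosb, Atf3, Fos, Egr1, Egr2, Nr4a1, Btg2 and Ier3. Fos ran from 27.4 CPM in the bottom index group through 61.7, 615 and 1603 to 3311 in the top index group, a ratio of 121 (97.9 to 151). The size of such ratios depended on the processing, and that of Fos ran from 44.5 to 156 over the alternatives given at the end. Fosb ran from 4.23 to 861, a ratio of 203 (121 to 372). Egr1, the zinc finger factor that marks this response, was at 27.3 and 2592, a ratio of 94.8, and Egr2 at 0.600, on 2 UMIs, and 36.8, a ratio of 61.4 (16.6 to 513). Atf3 was at 1.5 and 194, a ratio of 129 (54.9 to 398), and Nr4a1 at 4.5 and 265, a ratio of 58.8. Btg2 reached a ratio of 57.3 (46.3 to 71.6), Ier3 one of 39.1 (27.4 to 57.8), Ier2 one of 20.6 and Junb one of 19.9. For 6 of the 36 members (Fos, Fosb, Egr1, Atf3, Nr4a1 and Btg2) the bottom level was at or under the bound on free RNA, for Fos 27.4 against a bound of 57.6 CPM. Their bottom levels cannot be told apart from free RNA, so their ratios are not measures of expression in bottom cells, and the intervals cover counting error only. Among genes of RNA decay and feedback, Zfp36 had a ratio of 12.8, Socs3 of 8.74, Dusp1 of 8.56, Btg1 of 6.22 and Zfp36l1 of 2.99. Of the growth arrest genes Gadd45g had a ratio of 15.3, Gadd45b of 11.8 and Gadd45a of 3.61, and Hspa1a and Hspa1b had ratios of 21.1 and 35.1. Bcl6, a transcriptional repressor, had a ratio of 17.9, Ppp1r15a of 16.5, Nr4a2 of 13.1, Ier5 of 5.99, Maff of 5.45 and Atf4 of 3.49. The 5 members with too few UMIs for this count were Myc, Csrnp1, Nr4a3, Egr3 and Fosl1. Egr3 had 70 UMIs in the top index group and 0 in the bottom. Its top level was 24.1-fold above a floor of 3 UMIs per group of cells, and its ratio had a lower 95% limit of 19.1.

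A group of 6 members were less than 2-fold apart between these index groups, the least measured being Fosl2, with 105 and 154 UMIs. Klf2, a KLF factor of quiescence and flow sensing, was at 352, 365, 374, 344 and 321 CPM over the index groups, a ratio of 0.914 (0.840 to 0.995). Cebpd was at 2005 in the bottom and 2210 in the top index group, a ratio of 1.10 (1.07 to 1.14). Klf6 had a ratio of 1.44 (1.27 to 1.64), Fosl2 of 1.51 (1.17 to 1.96), Rhob of 1.56 (1.40 to 1.74) and Cebpb of 1.66 (1.52 to 1.83). Cebpd was detected in 99.6% and Klf2 in 67.7% of thinned cells. Within the JUN family Jun had a ratio of 20.3, Junb of 19.9 and Jund of only 2.44 (2.30 to 2.58). Within the FOS family Fosl2 stood far under Fos and Fosb. Among KLF genes Klf4 had a ratio of 5.64 (4.90 to 6.53), while Klf2 and Klf6 lay under 2. Mcl1 had a ratio of 2.5.

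**Figure D2:**
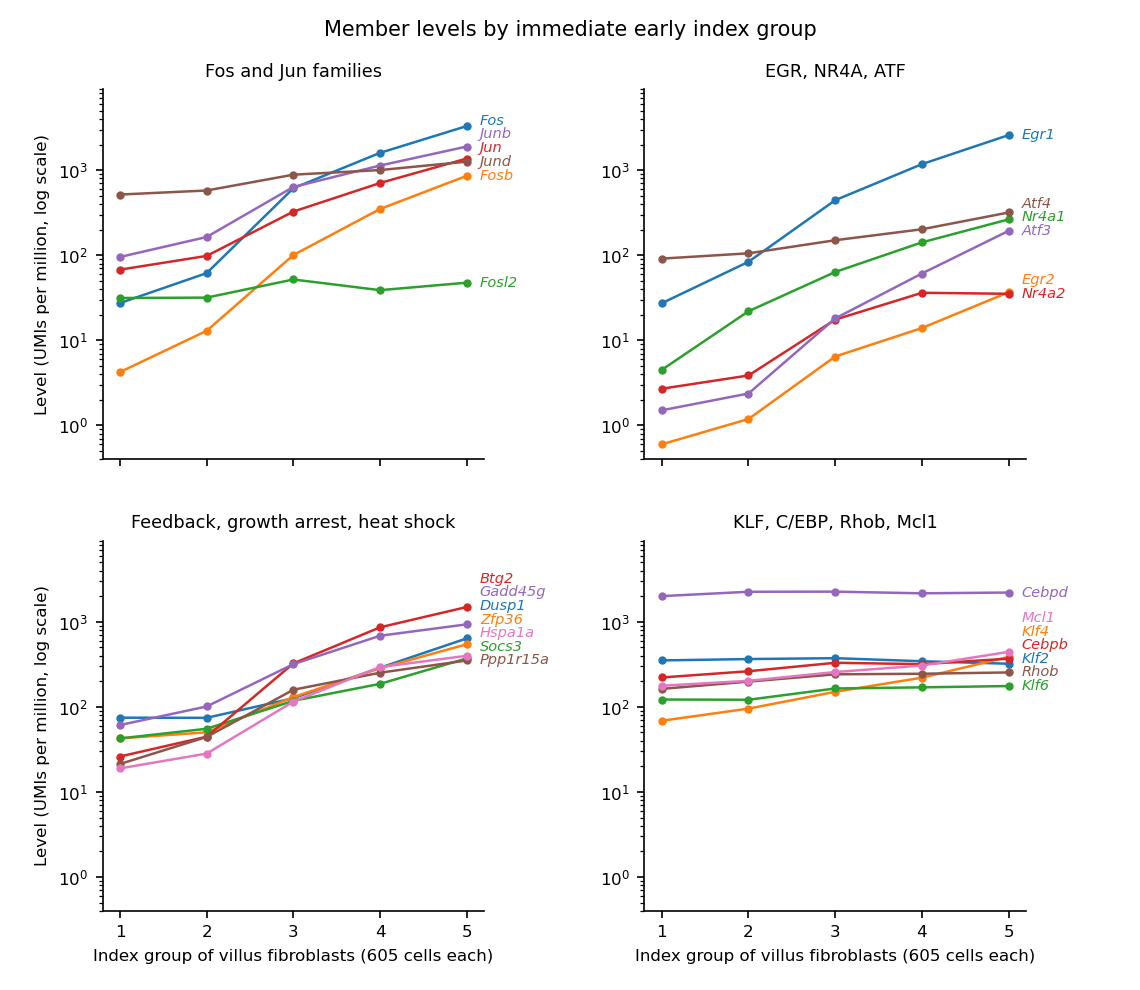
Levels of members in villus fibroblasts by index group, each of 605 cells. The x axis is the index group from lowest (1) to highest (5) index and the y axis the level in CPM on a log scale, with 1 line a gene. Fos, Fosb, Egr1 and Atf3 differ by 94.8-fold to 203-fold, whereas Cebpd, Klf2, Klf6, Rhob, Cebpb and Fosl2 stay within 2-fold. The bottom levels of Fos, Fosb, Egr1 and Atf3 cannot be told apart from free RNA. Over other ways of processing their folds ran from 33.1 (Egr1) to 477 (Fosb).

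Members that were higher in the top index group differed in where along the index this happened. The middle index group held 49.7% (35.5 to 68.9) of the top level for Nr4a2 and 45.3% (40.7 to 50.3) for Ppp1r15a, the phosphatase subunit that reverses the integrated stress response. Junb was at 33.5% (31.8 to 35.2) and Gadd45g at 34.0% (31.7 to 36.5). Fos, Egr1 and Dusp1, the phosphatase that switches off MAP kinases, were at 18.6% (17.7 to 19.5), 17.2% (16.2 to 18.1) and 19.8% (17.8 to 22). Fosb and Atf3 were lowest at 11.7% (10.4 to 13.1) and 9.33% (7.02 to 12.2). Each index gene was left out of its own ranking, so the percentages of Junb, Fos, Egr1, Fosb and Atf3 come from different rankings, and differences between them were not tested. Gadd45g and Dusp1 share 1 ranking, and their intervals did not overlap. Nr4a2 was at 36.2 in the fourth and 35.3 in the top index group, while Atf3 was at 61.1 and 194.

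**Figure D3:**
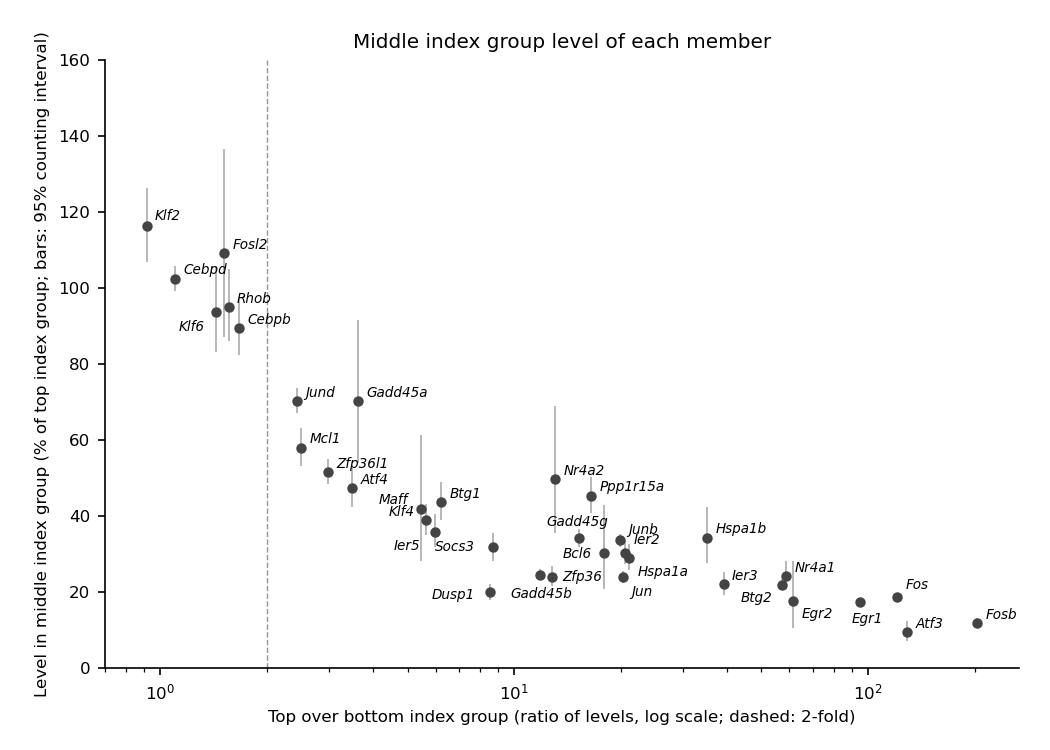
Level in the middle index group as a percentage of the top index group, for 36 members, against the ratio of the top to the bottom index group on a log scale. Points are genes, bars are 95% counting intervals and the dashed line is 2-fold. Nr4a2 and Ppp1r15a lie above genes of like ratio, and Atf3 and Fosb lie lowest, at 9.33% and 11.7%.

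The index groups also differed in other ways. Median UMIs per cell were between 10165 and 10731 in every index group. The median mitochondrial share went from 5.26% in the bottom to 4.54% in the top index group, and the share of cells in columns marked M from 46.8% to 60%. Cluster 4 gave 340 of the 605 top cells and 0 of the bottom cells. The vFB3 markers summed to 425 CPM in the bottom and 77.7 in the top index group, the SMC markers to 1043 and 318, the FB4 markers to 66.0 and 226, and the MC markers to 427 and 917, of which Rgs5 made up 398 and 879 and was the 1 MC marker past 2-fold of 2 with enough UMIs. Of 6 vFB1 and vFB2 markers, Apoe and Serpina3n were at least 2-fold higher in the top index group, and Ccl11 and Cxcl13 at least 2-fold lower. Mesothelial markers had 0 UMIs, and 4 epithelial and 5 endothelial markers summed to at most 3.09 CPM in either index group. The part of these differences in the member values was not tested. Ranked inside each of the 5 villus clusters alone, Fos still differed between top and bottom index groups by 3.37-fold in cluster 4 and by 33.7-fold to 108-fold in the others, whose bottom levels of 28.2 to 42.1 CPM lay under the bound on free RNA. Of members with at least 100 UMIs in the cluster's top and bottom groups, 25 of 31 were at least 2-fold higher in cluster 1 (3.6% of all genes), 22 of 28 in cluster 2 (2.18%), 20 of 29 in cluster 4 (2.3%), 10 of 17 in cluster 5 (1.62%) and 14 of 21 in cluster 6 (3.56%). Of 16 members with enough UMIs in every cluster, 7 (Btg2, Egr1, Fos, Gadd45b, Gadd45g, Jun and Junb) were past 2-fold in all 5, where 0.862% of 928 genes were, and 5 (Cebpb, Cebpd, Klf2, Klf6 and Rhob) in none, where 95.7% were. A ratio under 2 was thus the usual case.

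In FB4-like cells ranked the same way, 24 of 30 members with enough UMIs were at least 2-fold higher in the top index group, where 3.76% of all genes were, and 0 were lower, where 0.684% were. Fos was at 102 and 3867 there, a ratio of 37.9 (30.4 to 47.7). Its bottom level lay above the bound on free RNA of 57.6 CPM, but that bound is too low. Klf2, Cebpd, Rhob, Cebpb and Klf6 were again under 2-fold, at 0.666, 0.866, 1.13, 1.21 and 1.67, and so was Jund, at 1.64. In FB5-like cells 7 of 14 members with enough UMIs were at least 2-fold higher (2.22% of all genes) and 0 lower (0.278%). Fos had a ratio of 17.1 and Btg2 of only 3.0 (2.29 to 3.98), from bottom levels of 47.3 and 318 CPM, of which that of Fos lay under its bound on free RNA. Gadd45a in FB5-like cells was at 199 in the bottom and 342 in the top index group, so it was high also where the index was lowest.

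Correlations across single cells gave a division that overlapped in part with that by ratio. Among 2970 villus fibroblasts thinned to 5000 UMIs, 32 members were detected in at least 10% of cells, which made 496 pairs, and 178 pairs had a Pearson r of at least 0.3. Of all pairs of the 5783 genes detected as often, 0.0125% did. The median r was 0.219 for members and 0.000588 for all pairs. All pairs share 1 library and 1 depth, and low counts weaken r. The highest were Fos with Egr1 at 0.834, Fos with Btg2 at 0.807 and Fos with Junb at 0.774. Average linkage at r of 0.3 put 20 members in 1 group around Fos and Egr1 and left the other 12 single. The 12 were the 6 members under 2-fold between index groups and 6 past it, namely Hspa1b, Btg1, Gadd45a, Atf4, Zfp36l1 and Mcl1. Among those single, Klf2 had a median r of -0.0038 with the others and Cebpd of 0.0209, and their highest partners were Rhob at 0.136 and Cebpb at 0.182. Hspa1b had its highest r with Hspa1a, at 0.365, and Hspa1a its highest with Fos, at 0.483. In the 980 thinned cells of cluster 1 alone, 151 pairs reached 0.3 and the median r was 0.190.

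**Figure D4:**
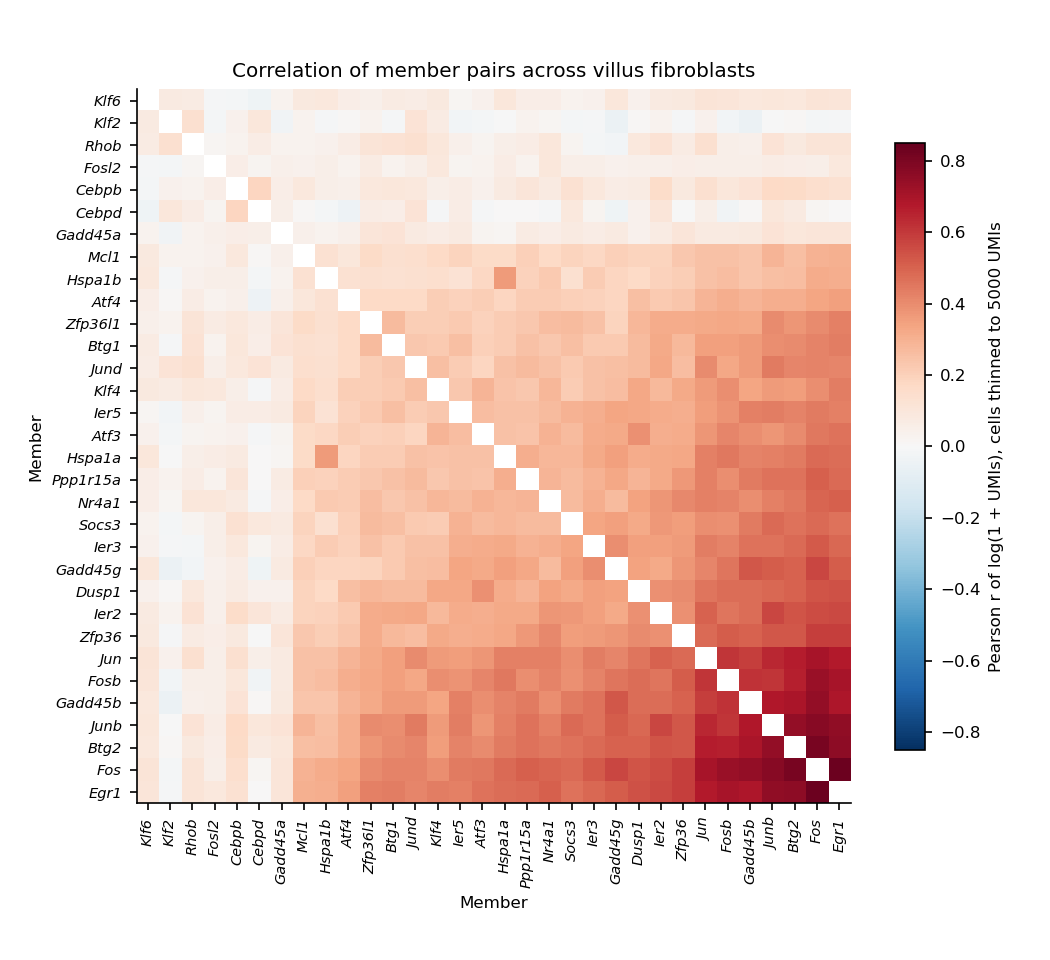
Pearson r of log(1 + UMIs) for 496 pairs of 32 members across 2970 villus fibroblasts thinned to 5000 UMIs. Rows and columns are genes in the order of average linkage and colour is r, with the diagonal blank. The block at the lower right joins Fos, Egr1, Btg2 and Junb, and the first 7 rows, from Klf6 to Gadd45a, stay pale.

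Genes outside the members were read over the same index groups. Among 30 other early response genes, 21 of 24 with enough UMIs were at least 2-fold higher in the top index group and 0 lower, beside 4.31% and 1.17% of all genes. The lowest was Thbs1 at 1.10, and Per1 and Srf were also under 2-fold, at 1.75 and 1.41. Of 11 heat shock proteins with enough UMIs only Dnajb1, Hsp90aa1 and Dnaja1 passed 2-fold, at 5.79, 2.97 and 2.61, and Hspe1 was lowest at 0.665. The integrated stress and unfolded protein response list had 1 of 6 past 2-fold (Ddit4, 2.12) and 0 lower, with Atf5 lowest at 1.17. The p53 target list had 1 of 7 (Cdkn1a, 10.5) and 0 lower, with Trp53inp1 lowest at 0.622, and the YAP/TAZ target list 1 of 5 (Cyr61, 9.63) and 0 lower, with Ctgf lowest at 0.652. Cyr61 is also on the early response list. Against that background of 4.31%, 1 gene past 2-fold in a list of 5 to 7 says little about the list. The median ratios of the lists were 4.88, 1.53, 1.68, 0.958 and 1.2.

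Non-members with large ratios included the chemokines Cxcl1 and Ccl2 and the cytokine Il6. The chemokines Cxcl14, Ccl11 and Cxcl13 were lower in the top index group, and chemokines were not counted as a group. Cxcl1 was at 1.2 and 143 CPM, a ratio of 119 (46.1 to 438), Il6 had a ratio of 50.6 (17.0 to 248) and Ccl2 one of 20.6 (14.4 to 30.6). Nfkbiz, an inducible NF-κB regulator, had a ratio of 34.3, Tmem88 of 37.9, Gm26545 of 25.5 and Arid5a of 24.9. Gm26802 and 1200007C13Rik had ratios of 295 (52.6 to 11700) and 118 (39.9 to 573). At the other end Sertm1 had a ratio of 0.0236, Mmp10, a matrix metalloproteinase and vFB3 marker, of 0.0462, Agt of 0.120, Cxcl14 of 0.177 and Snhg20 of 0.197. Acta2, the smooth muscle actin, was at 644 in the bottom and 166 in the top index group.

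LATS1/2 restrain YAP/TAZ, so members were also compared between villus clusters with high Amotl2, a YAP target (clusters 1 and 5, 1377 cells), and those with low Amotl2 (1648 cells). Of 40 members 1, Gadd45g, was at least 2-fold higher in YAP-target-high cells, where 2.23% of all genes were, and 0 were at least 2-fold lower, where 2.29% were. Gadd45g was at 570 against 282 CPM, a ratio of 2.02 (1.95 to 2.09), carried by cluster 1 (719), since the other high cluster, 5, was at 211 and the low cluster 4 at 516. With cluster 5 left out the ratio was 2.55. The ratio passed 2 in the clusters as made, but it was 1.83 with clusters made at resolution 1.0, 1.69 in F columns alone and 1.89 in cells of at most 5% mitochondrial UMIs. The members' median ratio was 0.746 against 0.976 for all genes, and of 36 members 32 had an interval under 1, where 28.9% of 7014 genes did, and 2 one above 1, where 27.6% did. Fos was at 893 against 1330, and Ier2 at 122 against 242. Since the low cells held 392 of the cells of the top index group and the high cells 213, the comparison was repeated inside index groups. In the top index group 15 of the 36 had an interval under 1 (8.88% of all genes) and 4 one above 1 (10.8%), with fewer UMIs behind each. There Gadd45g was at 1605 against 559, a ratio of 2.87 (2.67 to 3.09), and in the bottom and middle index groups its ratios were 3.29 and 3.53. In the top index group the high cells were 209 of cluster 1 and 4 of cluster 5, and 340 of the low cells were of cluster 4, so the comparison there is mostly one of cluster 1 with cluster 4. Cyr61 behaved alike, at 1323 against 403 in the top index group. Fos there was at 3091 against 3432, a ratio of 0.900 (0.865 to 0.938), and Fosb had a ratio of 1.02 (0.941 to 1.10). In the middle index group the direction for Fos was the opposite, at 659 against 578, a ratio of 1.14 (1.04 to 1.25), and in the bottom index group its ratio of 0.831 had an interval of 0.535 to 1.29. Gadd45b, with a ratio of 0.936 over all index groups together, was higher in YAP-target-high cells in the bottom, middle and top index groups, at 1.44 (1.18 to 1.76), 1.56 (1.40 to 1.73) and 1.22 (1.16 to 1.29). Rhob was lower in YAP-target-high cells in the bottom, middle and top index groups, at 0.542, 0.508 and 0.643. Median UMIs were 11608 in high and 9666 in low cells, and their part in these ratios was not tested.

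**Figure D5:**
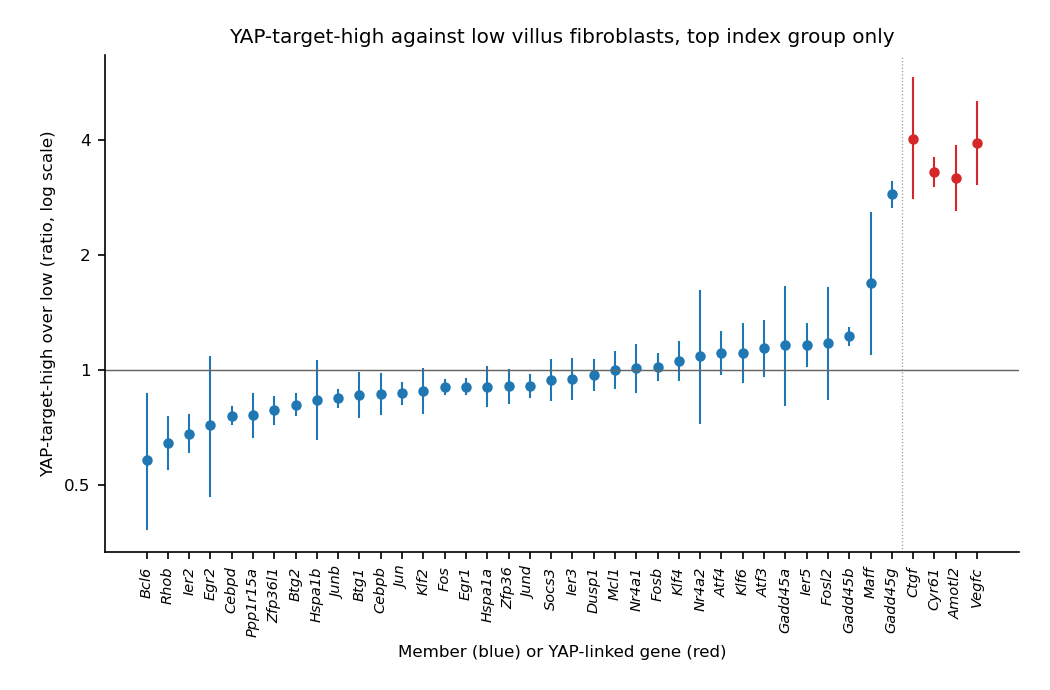
Ratio of levels in YAP-target-high over low villus fibroblasts within the top index group, on a log scale, for 36 members in blue and 4 YAP-linked genes in red. Points are ratios and bars 95% counting intervals; Amotl2 set the groups, so its ratio is no result. Gadd45g, at 2.87, is the one member near the red genes.

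The columns of the table were marked M (1983 cells) or F (2125 cells), and the 1983 cells without an Xist UMI were as many as the M columns. The paper states that cells were separated by whether they held the Xist transcript, to remove variation such as sex. The labels do not say whether the marks come from that step. No barcode was shared between the marks. In villus fibroblasts 0 of 40 members differed 2-fold between M and F columns, where 0.596% of all genes did. The median ratio of M over F was 1.2 for members and 1.02 for all genes. Fos was at 1309 in M and 953 in F columns, a ratio of 1.37 (1.35 to 1.40), and Atf3 at 70.6 and 39.1, a ratio of 1.80 (1.64 to 1.99). The direction was not shared by the clusters. The Fos ratio was 1.55 in cluster 1, 1.17 in cluster 4 and 1.77 in cluster 5, but 0.853 in cluster 2 and 0.820 in cluster 6, and in MC-like cells it was 0.992 (0.893 to 1.10). With 1 library, the mark and any difference between the animals used cannot be told apart.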

How the data were processed

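Mouse IntSCs of 1 LATS1/2 KO 1w library were profiled with 10x 3′ v3 chemistry. Each value the authors deposited is a natural log (1 plus a gene's UMIs per 10000 of the cell), made with Cell Ranger 3.0.2 on mm10 and Seurat 3.0.1 (submitters' processing notes), from cells with 1000 to 6000 genes and at most 7% mitochondrial UMIs, after immune and endothelial clusters were removed. UMIs were recovered exactly: 100% of 13789523 values above 0 were whole within 0.001. No doublet caller was run; the study's limit on genes per cell was the guard used. The WT and 2w libraries were not analysed here.

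Cells were clustered with Seurat 5.3.0 in R 4.3.3 (1955 variable genes without members, YAP/TAZ targets, Vegfc and sex-linked genes; 30 components; resolution 0.5; UMIs and mitochondrial share regressed out). A marker counted at 2-fold or more over the median of all other clusters, or, for villus clusters, of those outside the villus pool, a rule set after levels were seen. Counts of genes past a ratio used genes with at least 100 UMIs over the cells compared. Intervals were exact Poisson (levels), conditional binomial (ratios) and Clopper-Pearson (shares), from scipy 1.17.1. The index group ratios and the ratio and Poisson intervals were tested on simulated data. Clustering, thinning, correlations and the bound on free RNA were not. The members, lists and tests were chosen with earlier results of these data known. Named by rule were the index genes, the 8 largest and 4 smallest ratios across types, the 8 largest and 8 smallest over index groups, and 10 and 5 non-members, of which 1 is not reported here; other members were named after their values were seen. Alternatives were other cells, clusterings, indices, bins, splits, thinning and minimums of UMIs, and, added after seeing the data, leaving out villus cluster 5.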

Additional observations from a re-analysis of the deposited data

How the results depend on the processing

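No paired analysis was possible because only 1 library was analysed. Leaving out a replicate was not possible either. The count of members at least 2-fold apart across types was 38, and 1 with cells of at most 5% mitochondrial UMIs, where only villus fibroblasts and FB4-like cells kept 40 cells or more. Under the other 11 alternatives it was 29 to 38. The count of members at least 2-fold higher in the top index group was 26 to 35 over 17 alternatives, against 30. For 585 ratios of single members over index groups the side of 2-fold was kept, and 2 changed side, Fosl2 at 2.03 with only M columns and Gadd45a at 1.80 ranked by Fos alone. The size of large ratios moved far more. Over the alternatives Fos ran from 44.5 to 156, Fosb from 67.0 to 477, Atf3 from 51.7 to 372 and Egr1 from 33.1 to 110. Nr4a1 ran from 16.1 to 72.2 and Btg2 from 23.1 to 79.4, while Jund stayed at 2.03 to 2.53. Pairs at r of at least 0.3 fell to 74 of 378 when cells were thinned to 2000 UMIs. The share of villus fibroblasts with a Fos UMI was 49.5% thinned to 2000 UMIs and 66.1% without thinning. Members past 2-fold between YAP-target-high and low cells numbered 3 at resolution 0.2, 0 at resolution 1.0 and 2 with nothing regressed out, and Gadd45g was at 1.83 at resolution 1.0, 1.69 in F columns and 1.89 with cells of at most 5% mitochondrial UMIs. Between M and F columns 1 member (Atf3, 2.04) passed 2-fold with cells of at most 5% mitochondrial UMIs. The cause of these changes was not tested. Leaving out villus cluster 5, an alternative chosen after seeing the data, gave 38 members apart across types, 30 over index groups and 173 pairs. It gave 1 member between YAP-target-high and low cells and 0 between M and F columns. The FB4-like count of 6 became 2, where 2.90% of all genes were higher. Of ratios of single members between types, 451 kept their side of 2-fold, 17 went under it and 1 went over. No ratio past 2-fold changed direction. Assigning each cell by its marker lists left 1336 villus fibroblasts. It put 552 cells in vFB3-like, 852 in FB4-like, 486 in FB5-like, 415 in SMC-like and 467 in MC-like. The 45 vFB3-like cells gave 1 to 5 UMIs for several members, which limits ratios against them.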
